A study of Mus musculus with 14 samples.

Results

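The translation initiation and elongation factors are the proteins that bring a ribosome to the start codon of an mRNA and then drive it along the coding sequence. Their genes were taken as all gene names on the array that begin with Eif and a digit from 1 to 6 or with Eef and 1 or 2. The 4E-binding proteins, the eIF2 kinases, Eif4enif1, Eef2k and the Y-linked Eif2s3y were left out. This gave 55 of the 27376 gene names, read by 127 probes, and the brightest probe stood for a gene. Of the 55, 4 carry the old names Eif2c1 to Eif2c4 and are the Argonaute genes Ago1 to Ago4 in RefSeq. These act in microRNA silencing rather than initiation, and they are kept apart where it matters. A low-signal filter passed 54 members. Eef1a2, the elongation factor isoform known from muscle and neurons, was not well above background on any of the 14 arrays and was not tested. Of the 54, Eif2b3 was well above background on 9 arrays and the other 53 on all 14.

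The factors work in a fixed order. eIF2 carries the initiator tRNA to the small ribosomal subunit with the help of eIF3, eIF1 and eIF1A, and eIF2B recharges eIF2 with GTP. The eIF4F complex of cap binder eIF4E, scaffold eIF4G and helicase eIF4A, aided by eIF4B, brings the mRNA. eEF1 then delivers aminoacyl-tRNAs and eEF2 moves the ribosome on. mTORC1, the kinase complex that the small GTPase Rheb (gene Rheb1, official symbol Rheb) switches on, controls this machinery in blood cells as elsewhere by releasing eIF4E from its binding proteins. It also favours the translation of mRNAs that start with a pyrimidine tract, called TOP mRNAs, several of which encode these factors.

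Gene expression had been measured on 14 single-colour Agilent arrays, 1 per sample. Wild-type mice are compared with Rheb1-/- mice, made by crossing Rheb1fl/fl mice with Vav1-cre mice, whose recombinase is driven by a promoter active in blood cells from the stem cell on. Myeloid progenitors and myeloid cells had 3 samples per genotype, and hematopoietic stem cells 1 per genotype. The labels give no age or sex and do not say which samples came from which animal. The p-values therefore cover only the spread among these samples, which may be technical. Errors after ± are standard errors (SE) of the fit, with n = 3 per group. Values are log2 signal relative to the 75th percentile of the array, and a difference of 1 is 2-fold.

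The share of spots well above background was 58.5% to 67.6%. Correlations across genes between replicates ran from 0.988 to 0.992, and the small number of arrays limits the precision. The arrays lay on 4 slides. Wild-type myeloid cells lay on slide 1 and Rheb1-/- myeloid cells on slide 4, so that genotype and slide cannot be told apart there or in stem cells. Wild-type progenitors lay on slides 2 and 3, apart from wild-type myeloid cells, so cell type and slide cannot be told apart in wild-type mice either. Both genotypes of the progenitors met on slide 3, which gives a within-slide value. Rheb, the targeted gene, read 3.99, 4.08 and 3.82 in wild-type and 3.31, 2.69 and 2.65 in Rheb1-/- progenitors, 3.61, 3.00 and 2.86 in wild-type and 2.23, 2.16 and 2.43 in Rheb1-/- myeloid cells, and 3.51 against 2.31 in stem cells. Rheb was lower by 1.08 in progenitors (limma adjusted p = 0.0945) and fell by 0.88 in myeloid cells (limma adjusted p = 0.0121). The sources used here do not say whether its probe lies in the deleted part. Of 13 mature myeloid markers measured, all 13 were higher in wild-type myeloid cells than in progenitors (limma, adjusted p under 0.05). The 12 stem cell markers had a summed level (log2 of the summed relative signals) of 5.1 and 5.3 in the stem cell arrays and 2.74 to 4.52 elsewhere. Single markers differed. Procr read 1.16 and 1.54 in the stem cell arrays and at most -2.68 elsewhere, whereas Ly6a read 2.90 and 2.42 in stem cells and 3.29 to 4.42 in myeloid cells.

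Arrays also differed in sex-linked genes. Eif2s3y, the Y-linked partner of Eif2s3x, read -7.68, -7.53 and -7.56 in Rheb1-/- myeloid cells and -8.09 in Rheb1-/- stem cells, where it was not well above background. It read 1.84, -1.88 and 2.52 in wild-type myeloid cells and 0.12 to 1.09 in the 6 progenitor arrays. Xist, the RNA of the inactive X chromosome, read -0.13 and 0.15 in wild-type myeloid arrays 1 and 3 and 4.31 in array 2, against 5.20 to 5.27 in Rheb1-/- myeloid cells. These readings thus moved with genotype in myeloid and stem cells, whereas their ranges overlapped in progenitors, and their part in the results was not tested.

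The probes of the members that changed most with genotype in myeloid cells are shown so that the measured stretch of each mRNA is plain. They are 60-base oligonucleotides, given 5′ to 3′ as deposited, on the plus strand of mm9. The Eif4b probe covers 263 genomic bases and so crosses an intron.
Eef1b2 (chr1:63225413-63225472): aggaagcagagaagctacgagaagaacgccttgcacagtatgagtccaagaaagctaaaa
Eif4b (chr15:101925462-101925724): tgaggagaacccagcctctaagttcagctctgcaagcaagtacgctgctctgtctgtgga
Eef2 (chr10:80643799-80643858): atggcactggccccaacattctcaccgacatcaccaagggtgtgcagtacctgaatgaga

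Bases near the annotated starts of members known as TOP mRNAs are shown as a description of the motif. The members were listed with results of these data known, and a link between motif and expression was not tested. The list held 9 members, Eef1a1, Eef1b2, Eef1d, Eef1g, Eef2, Eif3e, Eif3f, Eif3h and Eif4b. RefSeq windows of GRCm38.p6 existed for 5 of the 9. The motif searched was a C followed by at least 6 further pyrimidines, on the transcribed strand only, from 10 bases before to 30 bases after the annotated start. It was found in 4 of those 5, in 9 of 39 other members with a window (23.1%) and in 5301 of 27025 genes (19.6%). Capitals mark the tract in 30 bases around it. No match in the window of Eef1b2 says only that these letters are not there.
Eif3f (chr7:108934404-108934433, plus strand): ttctaggCTCTCTCTCTTTCTCggcaagat
Eef1a1 (chr9:78481710-78481739, minus strand): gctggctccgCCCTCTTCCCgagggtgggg
Eef2 (chr10:81176635-81176664, plus strand): acgtcagcggtCTCTTCCgccgcagccgcc
Eif4b (chr15:102073772-102073801, plus strand): acgccgcgccaCCCCCTCgcgctgctttac
The tract spanned the annotated start in Eif3f and Eef1a1, and began at base 16 after it in Eef2 and at base 11 in Eif4b.

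By signal, the brightest members were Eef1a1, which delivers aminoacyl-tRNAs (mean over 14 arrays 7.23, range 6.77 to 7.82), Eif1 (7.19), Eef1g (7.13), Eef1b2 (7.05) and Eif3h (6.64). The dimmest of the 53 were Eif2c3 (-1.71), Eif5a2 (-1.33) and Eif2c4 (-0.29). These are readings of different probes and do not rank the amounts of mRNA. The median over the 54 members was 3.77 to 3.88 on the wild-type progenitor arrays, 3.80 to 3.88 on the Rheb1-/- ones, 3.32 to 3.36 on wild-type myeloid arrays and 3.44 to 3.63 on Rheb1-/- myeloid arrays. It was 3.28 in wild-type and 3.33 in Rheb1-/- stem cells. Progenitor arrays stood above all others, and the 2 genotypes overlapped in progenitors but not in myeloid cells. The place of the stem cells depended on the scaling. With quantile normalization or the deposited values their medians were 3.58 in wild type and 3.66 in Rheb1-/-. Those of myeloid cells were then 3.27 to 3.28 and 3.54, and those of progenitors 3.76 and 3.80.

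**Figure D1:**
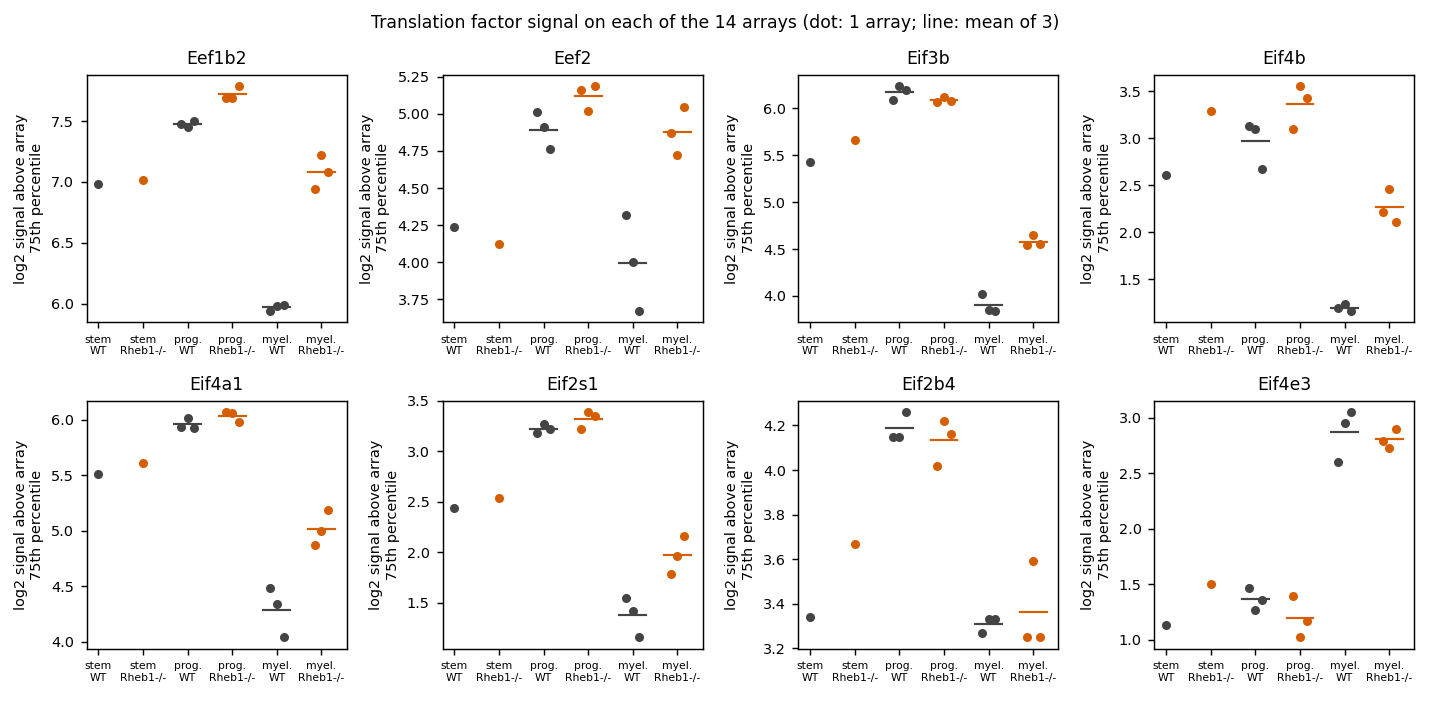
Signal of 8 translation factors on each of the 14 arrays (y axis, log2 above the array's 75th percentile, scaled per gene and not starting at 0). Dots are arrays, lines the mean of 3; stem, prog. and myel. are stem cells, progenitors and myeloid cells; WT is wild type. Eef1b2, Eef2, Eif3b, Eif4b, Eif4a1 and Eif2s1 were higher on every Rheb1-/- than on every wild-type myeloid array, whereas Eif2b4 and Eif4e3 overlapped.

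The largest differences lay between the cell types. In wild-type mice 44 of 54 factors were lower and 5 higher in myeloid cells than in progenitors (limma, Benjamini-Hochberg adjusted p under 0.05 over all 17727 genes tested). Over all genes tested 77.8% passed in either direction, 38.4% lower and 39.5% higher. The median difference of the members was -1.17, and that of all genes 0.07, which quantile normalization moved to -0.05 with the members at -1.17. The 3 myeloid arrays lay wholly below the 3 progenitor arrays for 44 members and above for 5, against 39% and 40.9% of all genes (79.9% either way). Without the Argonaute genes 42 of 50 members were lower and 3 higher. Markers of other cells moved with this comparison. Of 10 erythroid markers 5 were higher and 1 lower in wild-type myeloid cells, with a summed level (log2 of the summed relative signals) of 4.43 to 5.76 in progenitors and 10.57 to 11.05 in myeloid cells. B cell markers were higher for 6 of 7 and lower for 0, and monocyte and macrophage markers higher for 10 of 11 and lower for 1. T and NK cell markers were higher for 7 of 9 and lower for 1. Their summed level went the other way, from 7.29 to 7.39 in progenitors to 4.42 to 4.83 in myeloid cells. Most of it came from Nkg7, the lower one (mean 7.35 in progenitors and 4.33 in myeloid cells). Eosinophil, basophil and mast cell markers were lower for 8 of 9 and higher for 1 (summed level 9.74 to 10.01 against 6.99 to 7.60). Megakaryocyte markers were lower for 6 of 9 and higher for 2. The part of these markers in the factor differences was not tested. In bulk samples fewer cells of a type and less RNA per cell cannot be told apart.

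All 5 eIF2 group members, all 5 eIF2B subunits and all 13 eIF3 subunits fell. Of these, Eif2b3 was well above background on 1 of 3 wild-type myeloid arrays. It passed the low-signal filter only through the progenitors, so its fall carries no weight. Eif3b, a core scaffold subunit of eIF3, read 6.09, 6.24 and 6.19 in wild-type progenitors and 4.02, 3.85 and 3.84 in myeloid cells. It fell by 2.27 ± 0.08 (limma adjusted p = 9.84e-09), and no array overlapped. Eif2s1, the alpha subunit that stress kinases phosphorylate, read 3.18, 3.27 and 3.22 against 1.55, 1.42 and 1.16. It fell by 1.85 ± 0.12 (limma adjusted p = 2.68e-07). The groups were again apart. Eif1a, a relative of the X-linked eIF1A gene Eif1ax, fell by 2.04 ± 0.10 (limma adjusted p = 4.57e-08).

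Of the genes named as elongation factors 5 of 6 fell. Eef1e1, a small eEF1-related protein of the multi-tRNA synthetase complex, read 2.27, 2.32 and 2.37 in wild-type progenitors and -0.05, -0.22 and -0.41 in myeloid cells. Its fall of 2.55 ± 0.12 (limma adjusted p = 3.58e-08) was the largest of all members. Eef1g, the gamma subunit of the eEF1 exchange complex, fell by 2.00 ± 0.10 (limma adjusted p = 3.76e-08), and Eef2, the translocase, by 0.90 ± 0.16 (limma adjusted p = 3.73e-04). Eef1a1 differed by -0.34 ± 0.15 and did not pass (limma adjusted p = 0.0659), whereas its other, dimmer probe gave a difference of -1.36.

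The group of eIF4F and cap-binding genes was divided, with 8 of 11 lower and 2 higher. The cap binder Eif4e fell by 1.39 ± 0.09, the helicase Eif4a1 by 1.68 ± 0.12 and the scaffold Eif4g1 by 1.36 ± 0.11 (limma adjusted p = 2.35e-07, 5.21e-07 and 1.22e-06). Eif4e3, an eIF4E relative with a distinct cap pocket, went the other way. It read 1.46, 1.27 and 1.36 in progenitors and 2.60, 2.95 and 3.05 in myeloid cells, a rise of 1.5 ± 0.13 (limma adjusted p = 2.49e-06) with all myeloid arrays above all progenitor arrays. The other members that rose were the Argonaute genes Eif2c4 (1.14 ± 0.14) and Eif2c2 (1.01 ± 0.08), the start codon factor Eif1 (0.39 ± 0.07) and the scaffold Eif4g3 (0.38 ± 0.10). Without wild-type myeloid arrays 1 and 3 the Eif4g3 call was lost (limma adjusted p = 0.0530).

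In Rheb1-/- mice the same comparison gave 41 lower and 4 higher members, against 38.2% lower and 30.4% higher of all genes (68.6% in either direction, limma adjusted p under 0.05). The median was -0.82, and -0.08 over all genes. The groups did not overlap for 43 members lower and 4 higher, against 40.5% and 32.7% of all genes (73.2% either way). Eif4e3 (1.61 ± 0.13), Eif2c4 (0.93 ± 0.14), Eif2c2 (0.90 ± 0.08) and Eif1 (0.64 ± 0.07) rose here as well. Eef1e1 fell by 1.94 ± 0.12, Eif1a by 1.53 ± 0.10, Eif3b by 1.51 ± 0.08 and Eef1g by 1.42 ± 0.10 (limma adjusted p = 3.72e-07, 5.32e-07, 1.44e-07 and 5.89e-07). Eef2 differed by -0.25 ± 0.16 and Eef1a1 by 0.08 ± 0.15, neither passing (limma adjusted p = 0.183 and 0.668). On slide 4, which holds 1 progenitor array against 3 myeloid arrays, the Eef1a1 difference was -0.28. The other, dimmer Eef1a1 probe gave a difference of -0.67 over all arrays.

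Eif2b3, the gamma subunit of eIF2B, was dim. It read -4.20, -4.44 and -4.59 in Rheb1-/- progenitors and -7.88, -5.71 and -6.31 in Rheb1-/- myeloid cells, where no array held it well above background. The lowest signals well above background on those arrays gave a bound of 2.26-fold lower (limma adjusted p = 0.00187) under the main setting. Eif2b3 passed the low-signal filter only through the progenitor arrays, where it was higher. No weight is therefore put on this call or on its size. With normexp background correction the difference was -0.41 and did not pass (limma adjusted p = 0.130).

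**Figure D2:**
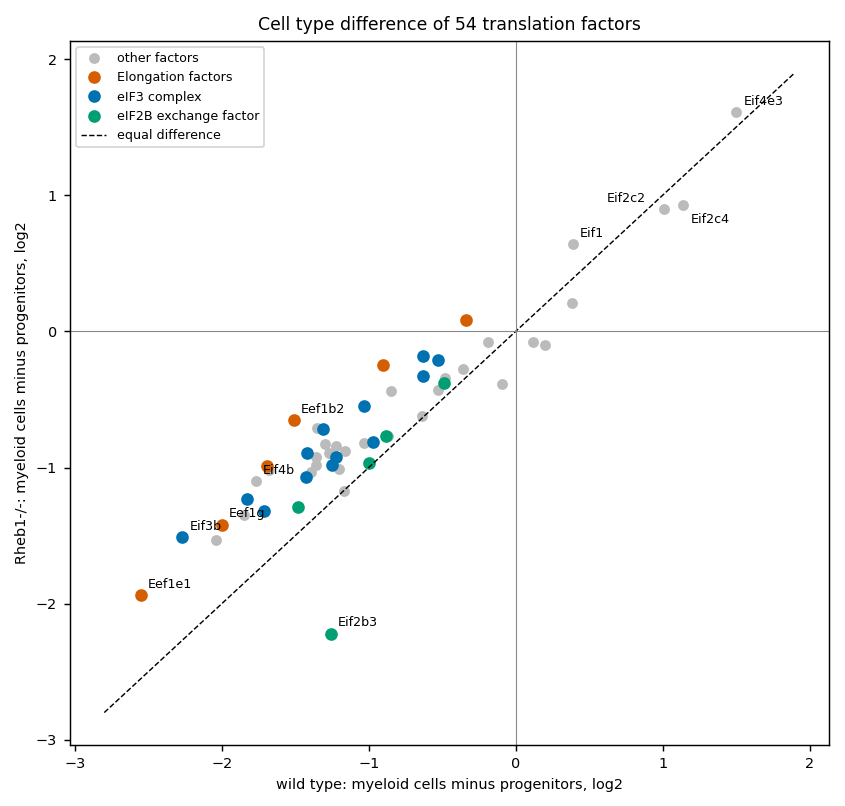
Myeloid cells minus progenitors in wild-type (x axis) and Rheb1-/- mice (y axis), log2 differences of 54 translation factors, 1 point per gene; the dashed line marks equal differences. Genes named as elongation factors (orange) and eIF3 subunits (blue) lie above the line, with smaller falls in Rheb1-/- mice except for Eef1a1. Its brightest probe, plotted here, did not pass there (0.08), and its dimmer probe gave -0.67. Of the eIF2B subunits (green) 4 of 5 lie near the line and Eif2b3 lies below.

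Between genotypes, progenitors showed little. None of the 54 factors passed in either direction (limma adjusted p under 0.05), and 0.0733% of all genes did (0.0508% higher, 0.0226% lower). With normexp background correction the split of all genes moved from 9 higher and 4 lower to 8 and 25. At an unadjusted p under 0.05 there were 3 members, all higher in Rheb1-/-, and 2168 of the 17727 genes. The median difference was 0.07, beside 0.02 over all genes, 38 members lay above 0, and the range was -0.20 to 0.40. In 9 members every Rheb1-/- array was above every wild-type array and in none below, against 11.4% and 8.58% of all genes (20% either way). Megakaryocyte markers moved with genotype here, with a summed level of 4.98 to 5.66 in wild-type and 2.91 to 4.02 in Rheb1-/- progenitors, and their part in these values was not tested.

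The smallest p belonged to Eef1b2, the exchange factor subunit of eEF1. It read 7.48, 7.45 and 7.50 in wild-type and 7.69, 7.69 and 7.79 in Rheb1-/- progenitors, a difference of 0.25 ± 0.08 (limma adjusted p = 0.278), and of 0.22 on slide 3 alone. Eif1a differed by 0.26 ± 0.10 and Eif4b, the helicase cofactor that the mTORC1 pathway phosphorylates, by 0.40 ± 0.16 (limma adjusted p = 0.342 and 0.354), with 0.27 and 0.44 on slide 3 alone. Of these the Eif4b arrays overlapped. Eif4e differed by 0.02, Eif4a1 by 0.07, Eif4g1 by -0.07, Eif2s1 by 0.10 and Eef2 by 0.23, with SE from 0.09 to 0.16, and the signs of Eif4e and Eif4g1 turned under other settings. Eef1a1 differed by 0.25 over all arrays and by 0.00 within the slide.

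In myeloid cells 26 of 54 factors were higher and 2 lower in Rheb1-/- mice (limma adjusted p under 0.05). Of all genes tested 34.2% passed, 16.6% higher and 17.6% lower. With quantile normalization the split of all genes turned from 2948 higher and 3113 lower to 3436 and 2634, and the member counts stayed at 26 and 2. The median difference of the members was 0.36, and -0.08 over all genes. In 30 members every Rheb1-/- array was above every wild-type array and in 2 below, against 21.3% and 28.8% of all genes (50.1% either way). Without the Argonaute genes the counts were 26 and 2 of 50. Without the X-linked Eif2s3x and Eif1ax the counts were 24 and 2, and with array 2 as the only wild-type myeloid sample 18 and 0.

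The genes named as elongation factors rose throughout, 6 of 6 tested, with Eef1e1 of the synthetase complex counted among them. Eef1b2 read 5.94, 5.98 and 5.99 in wild-type and 6.94, 7.22 and 7.08 in Rheb1-/- myeloid cells. This was a 2.16-fold rise (1.11 ± 0.08 on the log2 scale, limma adjusted p = 1.09e-04). All Rheb1-/- arrays lay above all wild-type arrays. Eef2 read 4.32, 4.0 and 3.67 against 4.87, 4.72 and 5.05, a 1.84-fold rise (0.88 ± 0.16, limma adjusted p = 0.00255) with the groups apart in spite of the wider spread of the wild type. Eef1e1, Eef1g, Eef1d and Eef1a1 rose by 0.76, 0.75, 0.70 and 0.67. The Eef1a1 call was lost with wild-type array 2 alone (limma adjusted p = 0.133).

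The eIF3 complex followed, with 11 of 13 subunits higher. Eif3e, a subunit encoded by a TOP mRNA, read 3.41, 3.50 and 3.32 in wild-type and 4.0, 4.28 and 4.26 in Rheb1-/- myeloid cells, a 1.70-fold rise (0.77 ± 0.10, limma adjusted p = 5.48e-04) without overlap. The other subunits that rose ranged from Eif3c (0.31) to Eif3i (0.75). Eif3k (0.37 ± 0.20) and Eif3d (0.16 ± 0.08), the latter itself able to bind a cap, did not pass (limma adjusted p = 0.175 and 0.149).

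Of the eIF2 group the 3 subunits of eIF2 itself rose. Eif2s1 read 1.55, 1.42 and 1.16 against 1.79, 1.96 and 2.16, a 1.51-fold rise (0.59 ± 0.12, limma adjusted p = 0.00491). Eif2s2 rose by 0.55 and Eif2s3x by 0.64. The groups did not overlap in any of the 3. Eif2a and Eif2d, alternative carriers of initiator tRNA, did not pass at 0.45 and 0.17. None of the 5 eIF2B subunits passed in limma, 1 had an unadjusted p under 0.05 (Eif2b1, 0.0305), and the 4 subunits other than Eif2b3 ranged from 0.05 (Eif2b4) to 0.33 (Eif2b1). The Eif2b3 probe was well above background on 1 of the 6 myeloid arrays, so no size is given for it.

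Of the start site factors Eif1a rose by 0.77 ± 0.10, from 0.86, 0.94 and 0.83 to 1.52, 1.56 and 1.87 (limma adjusted p = 6.29e-04), without overlap. Eif1ax rose by 0.47 and Eif1 by 0.25. Eif1b, a paralog of Eif1, fell by 0.32 ± 0.10 (limma adjusted p = 0.0318), from 3.87, 3.90 and 3.72 to 3.43, 3.64 and 3.46. Eif5a2, the rarer isoform of the hypusine-carrying factor eIF5A, read -1.07, -1.40 and -1.16 against -1.69, -1.66 and -1.66 and fell by 0.46 ± 0.14 (limma adjusted p = 0.0255). Each of these falls lost its call under 8 of 23 other settings, with adjusted p up to 0.110 for Eif1b and 0.377 for Eif5a2, and with wild-type myeloid array 1 or Rheb1-/- myeloid array 1 or 3 left out neither fall passed. Without wild-type array 2 the Eif1b call was lost. The Eif5a2 call was lost when wild-type array 3 or Rheb1-/- array 2 was omitted.

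Of the 11 members grouped as eIF4F and cap binding 3 rose. Eif4b read 1.19, 1.23 and 1.16 in wild-type and 2.22, 2.46 and 2.11 in Rheb1-/- myeloid cells, a 2.10-fold rise (1.07 ± 0.16, limma adjusted p = 0.00102). Eif4a1 read 4.48, 4.34 and 4.04 against 4.87, 5.0 and 5.19 and rose 1.66-fold (0.73 ± 0.12, limma adjusted p = 0.00179). Both were higher on every Rheb1-/- array. Eif4e read 1.56, 1.49 and 1.39 against 1.71, 1.89 and 1.96, a 1.3-fold rise (0.38 ± 0.09, limma adjusted p = 0.00994) that was lost with wild-type array 2 alone (0.0942). Eif4g1 differed by 0.31 ± 0.11 and did not pass (limma adjusted p = 0.0531), although it passed under 7 of 23 other settings. Eif4e3, at -0.06 ± 0.13, differed by less than its error. The Argonaute genes did not pass, ranging from -0.40 (Eif2c4) to 0.43 (Eif2c3), with limma adjusted p of 0.0526 and 0.0548. Another Eif2c3 probe, well above background on all 14 arrays, gave the opposite sign (-0.33).

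**Figure D3:**
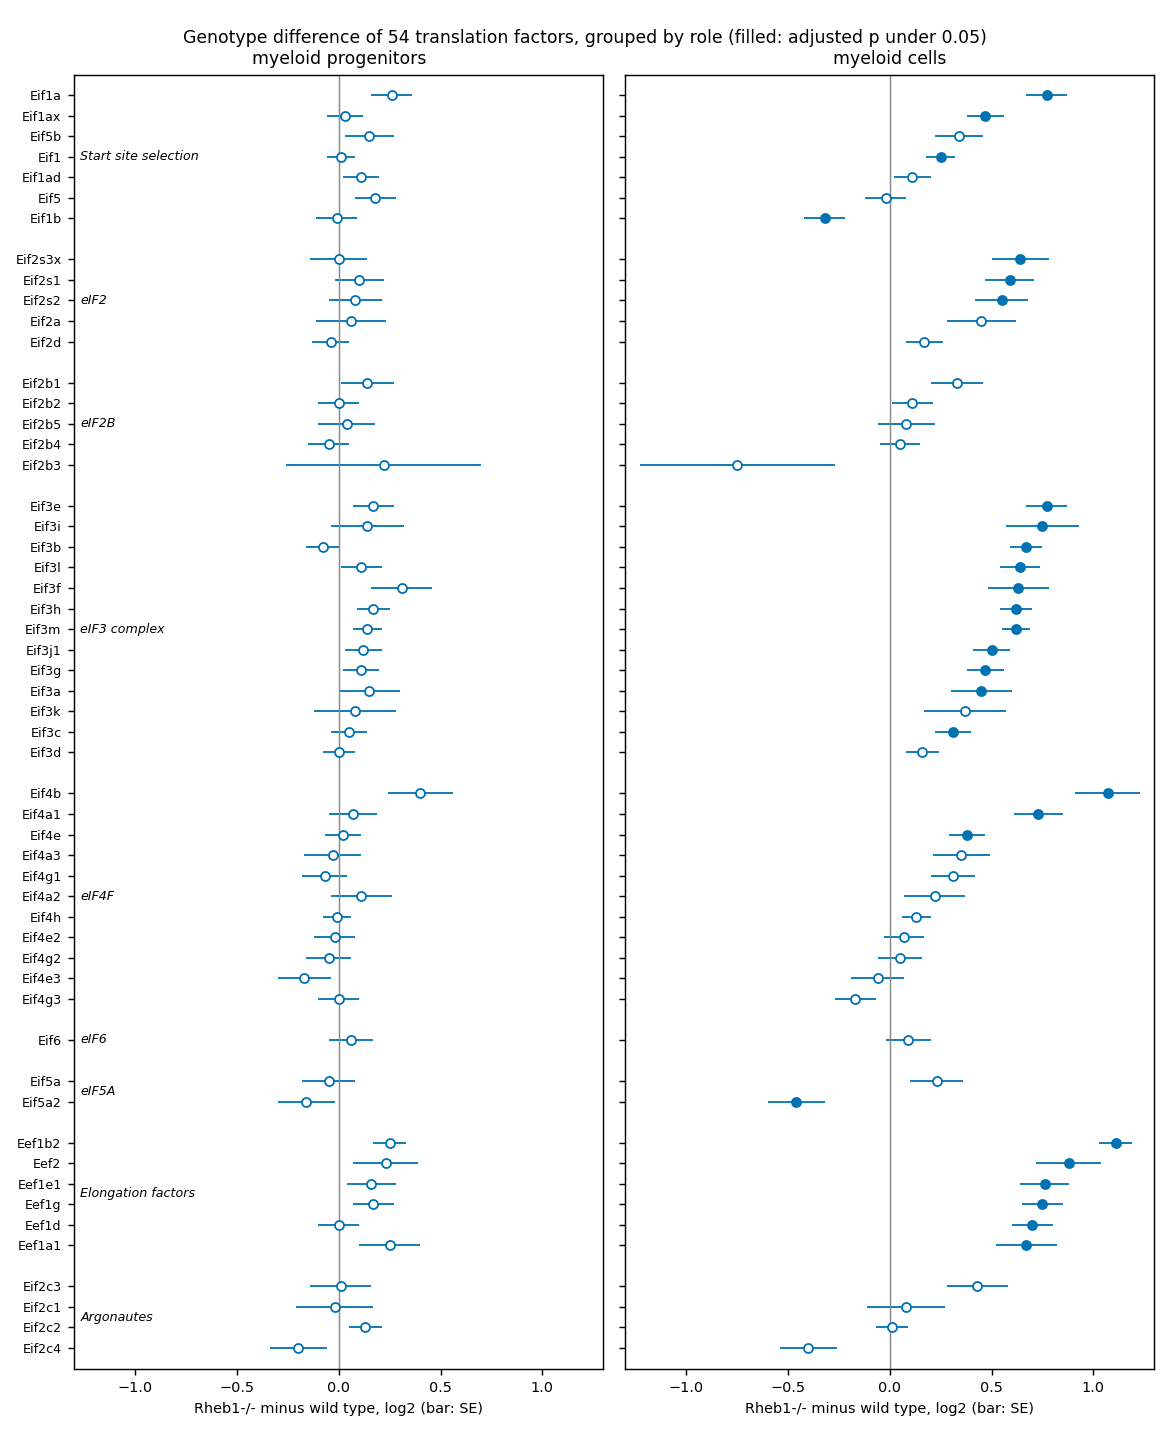
Rheb1-/- minus wild type, log2 difference with SE (x axis), of the 54 tested factors grouped by role, in progenitors (left) and myeloid cells (right); filled points passed at an adjusted p under 0.05. No point is filled in progenitors. In myeloid cells all 6 genes named as elongation factors and 11 of 13 eIF3 subunits are filled at higher values. No eIF2B subunit is filled there.

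The 9 members known as TOP mRNAs, with tracts printed above for 4, all rose in Rheb1-/- myeloid cells, by 0.62 to 1.11 (median 0.75). Of all 54 members 26 rose and 2 fell, and of all genes 16.6% were higher (limma adjusted p under 0.05). Rises of this size were not confined to the list, as Eif1a (0.77), Eef1e1 (0.76), Eif3i (0.75) and Eif4a1 (0.73) lie outside it. The list was chosen with results of these data known. In progenitors the median difference of the 9 was 0.23.

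Markers of other cells moved with genotype in the same myeloid samples. Of 10 myeloid progenitor markers 7 were higher and 1 lower in Rheb1-/- (limma adjusted p under 0.05, median 0.81). Their summed level was 9.36 to 9.63 in wild-type and 10.15 to 10.60 in Rheb1-/- myeloid cells, and 10.66 to 10.95 in wild-type progenitors. Erythroid markers were lower for 8 of 10 (summed level 10.57 to 11.05 against 8.30 to 10.11), B cell markers for 5 of 7 (3.65 to 4.65 against 2.80 to 3.25), megakaryocyte markers for 7 of 9 and monocyte and macrophage markers for 7 of 11, of which 1 was higher. T and NK cell markers were lower for 5 of 9 and higher for 1, which was Nkg7 (mean 4.33 in wild-type and 5.60 in Rheb1-/- myeloid cells). Nkg7 made up most of their summed level of 4.42 to 4.83 against 5.38 to 5.91. That level therefore does not stand for the other markers of the list. Of the mature myeloid markers 2 of 13 were lower and 0 higher, and all 13 differences lay below 0 (-0.96 to -0.09, median -0.21). The part of these shifts in the factor differences was not tested.

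The genotype difference itself was larger in myeloid cells than in progenitors for 12 of 54 factors and smaller for 0 (limma, test of the difference of differences, adjusted p under 0.05). Of all genes 11% passed, 5.61% higher and 5.4% lower. With quantile normalization the split of all genes moved from 994 higher and 958 lower to 1369 and 782, and the member counts stayed at 12 and 0. The 12 were Eef1b2 (0.86 ± 0.12, limma adjusted p = 0.00883), Eif3b (0.76 ± 0.11, 0.00929), Eef1d (0.70 ± 0.14, 0.0168), Eif4a1, Eef1e1, Eif3e, Eef1g, Eif3l, Eif1a, Eif3m, Eif3h and Eif1ax. Eef1b2 and Eif3b passed under all 22 other settings. Eif4a1 (0.66 ± 0.17, limma adjusted p = 0.0376) lost its call under 13 of 22 and Eef1e1 (0.60 ± 0.17, 0.0496) under 15 of 22. Eef2 (0.65), Eif2s1 (0.49), Eef1a1 (0.42), Eif4g1 (0.38) and Eif4e (0.35) did not pass, with adjusted p from 0.0821 to 0.224.

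The count of 12 changed with the arrays used. It was 14, 11 and 8 without Rheb1-/- myeloid array 1, wild-type myeloid array 1 and wild-type myeloid array 2. It was 3 without Rheb1-/- progenitor array 1, 5 without array 2 or 3, and 6, 4 and 6 without wild-type progenitor arrays 1, 2 and 3. It was 5 without wild-type myeloid array 3, 4 without Rheb1-/- myeloid array 2 or 3, and 2 with array 2 as the only wild-type myeloid sample.

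Eif2s3x, the X-linked gamma subunit of eIF2, was the member whose probes disagreed most. Its brightest probe read 1.79, 2.37 and 1.87 in wild-type and 2.53, 2.79 and 2.62 in Rheb1-/- myeloid cells, a difference of 0.64. Array 2, the wild-type myeloid array with high Xist, was the highest of the wild type. Another probe read 1.80, 0.00 and 2.40 against -0.26, 0.07 and -0.12, a difference of -1.5, and its array order in wild type followed that of the Y-linked Eif2s3y. A probe that directly adjoins it differed by 0.62. Both of these probes are printed because they sit end to end on the minus strand of chromosome X in mm9 and yet moved in opposite directions. The disagreeing probe covers 5409 genomic bases and so crosses an intron.
Eif2s3x, agreeing (chrX:91441635-91441694): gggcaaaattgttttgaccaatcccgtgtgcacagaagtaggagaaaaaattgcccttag
Eif2s3x, disagreeing (chrX:91436226-91441634): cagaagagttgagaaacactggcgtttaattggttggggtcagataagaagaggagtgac
In progenitors, where sex-linked genes did not move with genotype, the 3 probes differed between genotypes by 0.00, 0.14 and 0.11. Of 39 members with at least 2 measured probes, 7 had probes of opposite sign in myeloid cells, and the widest spread was that of Eif2s3x (2.14).

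**Figure D4:**
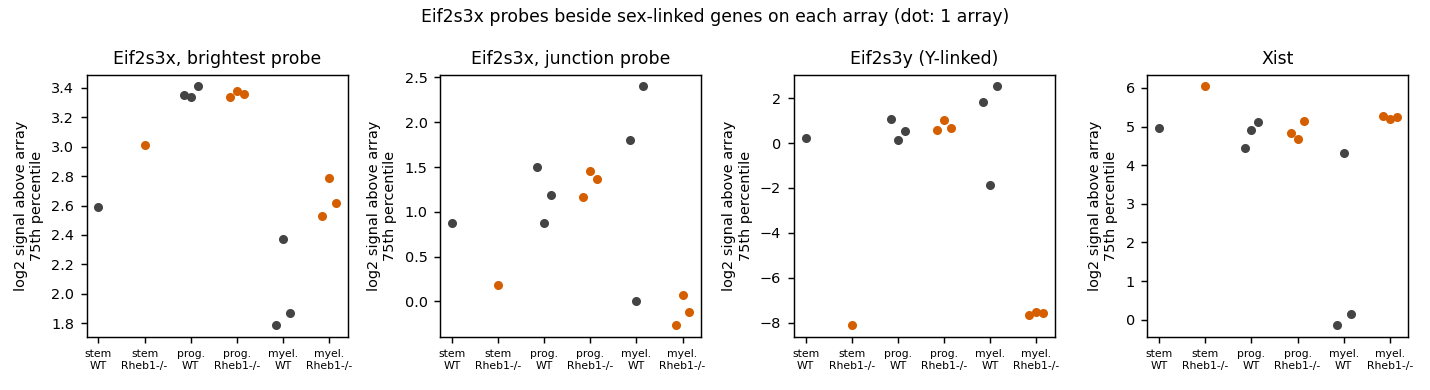
Signal of 2 Eif2s3x probes, Eif2s3y and Xist on each of the 14 arrays (y axis, log2 above the array's 75th percentile, scaled per panel; dot, 1 array; WT, wild type). In myeloid cells the junction probe, which crosses an intron, is high on wild-type arrays 1 and 3, where Eif2s3y is high and Xist low, and the brightest probe is lowest on the same arrays.

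In stem cells, with 1 array per genotype and no test, 3 of 54 members were more than 1.5-fold higher in Rheb1-/- and 0 lower, against 15.2% and 10.3% of all genes measured. The median difference was 0.10, and 0.12 over all genes. Eif3k read 1.82 and 2.68, Eif2b3 -5.72 and -4.89, Eif4b 2.61 and 3.29, and Eif2s3x 2.59 and 3.01 in wild type and Rheb1-/-. The lowest differences were those of Eif1 (-0.34), Eif2c4 (-0.31), Eif4g2 (-0.26) and Eif4g3 (-0.24). The 2 arrays also differed in summed levels of erythroid (7.99 and 5.26), monocyte and macrophage (7.80 and 3.85), eosinophil, basophil and mast cell (7.76 and 4.89) and B cell markers (6.04 and 4.58), whose part was not tested. The wild-type stem cell array was below all 3 wild-type progenitor arrays for 51 of 54 members and above for 2, against 49.7% and 33.3% of all genes. It was above all 3 wild-type myeloid arrays for 36 members and below for 10, against 41.2% and 47.8%. In Rheb1-/- the stem cell array was below the progenitors for 46 and above for 3, against 43.5% and 39.6%, and above the myeloid cells for 32 and below for 14, against 46.5% and 40.5%. Eif2c1 was among the exceptions, at 2.14 above its 3 progenitor readings of 1.22, 0.92 and 1.29. The position counts were made under the main setting only, and their change with other scalings was not tested. Under the main setting the member medians of stem cells lay below those of myeloid cells (wild type 3.28 against 3.34, Rheb1-/- 3.33 against 3.59). With quantile normalization or the deposited values they lay above (wild type 3.58 against 3.27 to 3.28, Rheb1-/- 3.66 against 3.54).

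Genes that act around these factors moved in both directions in Rheb1-/- myeloid cells, where 16.6% of all genes were higher and 17.6% lower. With so few genes in each list, counts of 1 or 2 genes lie near those shares and are given as a description. Of 12 genes of mTORC1 and MAPK control 4 rose and 4 fell (limma adjusted p under 0.05). Rps6, a ribosomal protein and S6 kinase substrate, rose by 1.15 ± 0.18 and Larp1, which binds TOP mRNAs, by 0.68 ± 0.10 (limma adjusted p = 0.00131 and 0.00138). Mknk1, a kinase of eIF4E, fell by 0.50 ± 0.08 (limma adjusted p = 0.00133). Of 10 genes of eIF2 kinase control 5 rose and 2 fell, among them the phosphatase subunit Ppp1r15a (1.03 ± 0.19) and the transcription factor Atf4 (0.64 ± 0.12), both higher. Atf4 read 2.46, 2.40 and 2.27 in wild-type and 2.97, 2.97 and 3.1 in Rheb1-/- myeloid cells, and 3.37, 3.13 and 3.25 against 2.93, 2.65 and 3.1 in progenitors, where it did not pass. Its genotype difference was larger in myeloid cells by 0.99 ± 0.17 (limma adjusted p = 0.0118).

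Of 9 poly(A)-binding and helper genes 2 rose and 1 fell, led by Pabpc4 (0.96 ± 0.12, limma adjusted p = 5.14e-04). Of 9 mitochondrial translation factors 5 rose and 0 fell, with Mtrf1, a release factor, at 0.54 ± 0.08. Of 6 termination and recycling factors 2 rose, Gspt1 (0.46) and Abce1 (0.42), and of 9 genes that modify elongation factors or insert selenocysteine 2 rose, Dph5 (0.74), an enzyme of the diphthamide on eEF2, and Eefsec (0.45).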

How the data were processed

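Spot intensity is the processed signal of Agilent Feature Extraction, background-subtracted by the authors' scanner software per the file headers, whose version is 10.7.3.1. The submitters' processing notes give 9.1. Mean and background intensities served the normexp alternative. The deposited value table holds log2 values. Its columns have the same distribution (sorted values within 0.00141, all medians 5.92), as quantile normalization gives. The sources used here do not state its background treatment.

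Controls (1639 of 45018 spots) and 79 to 195 outlier spots per array were left out and spots of a probe averaged. The log2 signal minus the array's 75th percentile was fitted for 17727 genes, each above background throughout at least 1 replicated group, with 1 mean per group over 12 arrays in limma 3.58.1 (R 4.3.3; 8 residual and 1.95 prior degrees of freedom). The threshold was 0.05 on two-sided p-values adjusted by Benjamini-Hochberg. Groups came from the labels. Coordinates of probes are the files', in mm9. Of 55 members 51 matched RefSeq by accession, 2 by symbol and 2 by an older symbol. The fit was tested on simulated data.

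Named are, per comparison, the 5 largest rises and falls among passing members that do not overlap and are above background throughout the higher group (the 3 smallest p where fewer pass), always Eif4e, Eif4a1, Eif4g1, Eif2s1, Eef1a1 and Eef2, and, between the stem cell arrays, 4 differences in each direction. Up to 3 genes per neighbouring list and other members within their role are named as well. Eif2c1 in stem cells was chosen after its values were seen. Members and lists were chosen with earlier results of these data known. Other settings were normexp (offset 50), quantile normalization, the value table, the mean of probes, other filters, replicate number or slide as a block, fewer arrays, and each array left out.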

Additional observations from a re-analysis of the deposited data

Results flagged for a closer look

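The genotype difference differed between myeloid cells and progenitors, by its own test, in 12 factors. The log2 differences of the differences were 0.86 for Eef1b2, 0.76 for Eif3b, 0.70 for Eef1d, 0.66 for Eif4a1, 0.60 for Eef1e1, 0.60 for Eif3e, 0.58 for Eef1g, 0.53 for Eif3l, 0.51 for Eif1a, 0.48 for Eif3m, 0.45 for Eif3h and 0.44 for Eif1ax. All 12 were larger in myeloid cells. Eif1ax is X-linked, and the sex-linked genes moved with genotype in myeloid cells, a part that was not tested.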

How the results depend on the processing

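The number of members higher in Rheb1-/- myeloid cells stayed between 18 and 33 under all settings run, and 0 passed in progenitors under each. The number lower in myeloid cells fell from 2 to 0 with normexp, 0 without a filter, 1 with the 6 myeloid arrays alone and 0 with wild-type myeloid array 2 alone, and was 0 to 2 with single arrays left out. The number with a larger difference in myeloid cells fell from 12 to 3 without a filter, 6 with the replicate block and 2 with array 2 alone, and was 3 to 14 with single arrays left out. Correlations of same-numbered deviations were -0.15 to 0.13. With 3 samples per group they cannot settle whether replicate numbers pair the samples, and the labels do not say. The replicate block moved no other count by over 1.5 times. The wild-type cell type median was -1.05 with the mean of probes, -1.10 without X-linked members and -1.08 with array 2 alone. With single arrays left out it was -1.17 to -1.05, and the median genotype difference was 0.30 to 0.42 in myeloid cells and 0.27 to 0.40 as the difference between cell types.

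The direction turned for differences that had not passed. In progenitors Eif4e was -0.02 with normexp, -0.01 with the mean of probes and -0.03 to 0.06 with single arrays left out (lowest without Rheb1-/- array 2), Eif4g1 was 0.03 with the mean of probes and -0.18 to 0.01 with single arrays left out (highest without wild-type array 1), and Eef1a1 was 0.00 with slide as a block. Between cell types in Rheb1-/- mice Eef1a1 was -0.29 with the mean of probes, -0.28 with slide as a block, and -0.05 to 0.26 with single arrays left out, with 0.00 without Rheb1-/- myeloid array 2. The cause was not tested. The settings without X-linked members and with array 2 alone were chosen after seeing the data, and in the latter the lone sample is assumed to vary like the other groups. Slide as a fixed block gave values for the progenitor and Rheb1-/- comparisons only.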
